A study of Mus musculus with 3 samples.

Results

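Genes of fatty acid oxidation and of the peroxisome were followed through the first 3 days of culture of mPTECs on dishes. The set held 42 genes, each found as the gene name of at least 1 non-control probe, out of 21215 genes named on the array, and they were measured by 60 of 41157 probes. They were divided by role into 9 genes of fatty acid uptake, binding and activation, 19 peroxisomal genes and 14 mitochondrial genes, of which 10 belong to the oxidation cycle and 4 to the carnitine shuttle. Most of the 42 had lower signals in culture: 22 were at least 4-fold lower on day 1 (5.04% of all genes) and 26 at least 4-fold lower on day 3 (8.17% of all genes), each against day 0. By the brightest probe of each gene, none was 4-fold higher on either day, against 3.23% of all genes on day 1 and 5.11% on day 3.

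Long-chain fatty acids enter a cell with the help of membrane proteins, are bound by small carrier proteins in the cytosol and are activated to acyl-CoA before they can be burned. Mitochondria take up acyl groups through the carnitine shuttle and shorten them in a repeating cycle of dehydrogenation, hydration, dehydrogenation and thiolysis. Peroxisomes shorten very long and branched chains with their own set of enzymes, passing hydrogen peroxide to catalase. The proximal tubule of the kidney draws much of its energy from fatty acids and is rich in both organelles, and the nuclear receptor Ppara drives many of these genes.

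The cells came from kidneys of male mice aged 1 month, and the genotype and strain are not stated in the labels. One group was taken at day 0, another after 1 day and another after 3 days on dishes, and per the labels' protocols the culture medium held hydrocortisone, insulin-transferrin-selenium and 1% fetal bovine serum. Each day was represented by 1 sample hybridised to 1 single-colour Agilent array, so the differences below have no replicate check, no test and no error between cultures. Whether the 3 samples came from the same animals or cultures is not given. RNA came from whole cell populations, in which fewer cells of a type and less RNA per cell cannot be told apart.

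Each signal is given as a multiple of a value taken from its own array, the 75th percentile over spots other than controls, which was an intensity of 1184, 1509 and 1515 on days 0, 1 and 3. A gene was read from its brightest probe, and "well above background" is the scanner software's own flag for a spot. It held for 19687, 19517 and 19821 of the named genes on days 0, 1 and 3, and for 42, 42 and 41 of the set. Where a probe was not well above background on an array, its ratio is a bound. It was taken against the lowest signal that was well above background, or against the probe's own signal where that was higher. That lowest signal lay at 1.14%, 1.06% and 0.669% of the percentile on the 3 arrays. As a scale for the error, the log2 signals of replicate spots of 1 probe had an SD of 0.14 (median over probes), and probes of 1 gene had a median SD of their log2 ratio of 0.34, 0.47 and 0.27 for day 1 over day 0, day 3 over day 0 and day 3 over day 1. The label was checked against 11 genes of the proximal tubule, such as Slc34a1, Lrp2 and Miox, and all 11 were well above background on every day. Their summed signal was 1075, 203 and 24.3 on days 0, 1 and 3. All 11 were at least 4-fold lower on day 3 than on day 0, against 8.17% of all genes. Markers of other nephron segments were present too, with a sum of 334, 87.9 and 16.9 for 3 genes of the loop of Henle and of 71.3, 11.8 and 6.79 for 7 genes of the distal tubule and collecting duct. Endothelial genes (7) summed to 23.7, 12.9 and 5.46, macrophage genes (7) to 14.2, 10.5 and 17.1, fibroblast genes (6) to 5.14, 4.23 and 10.8, adipocyte genes (5) to 8.77, 15.0 and 2.28, and podocyte genes (5) to 9.02, 1.82 and 2.35. Single genes made up much of some sums. Fabp4 gave 8.36, 14.7 and 1.97 of the adipocyte sum, and 4 of the 5 adipocyte genes were lower on day 1 than on day 0. Col1a2 gave 1.97, 0.547 and 7.91 of the fibroblast sum, where 3 genes were higher and 3 lower on day 3 than on day 0. Of the macrophage sum, 1 gene gave 12.0, 6.12 and 13.4. The part of these shifts in the results below was not tested.

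The probes below stand for 5 genes with large differences that the account turns on, and for Acsl4 and Acot4, whose pairs of probes gave different ratios. Each is printed 5′ to 3′ as on the array, in lower case throughout, with its mm9 position in the next paragraph.
Fabp1: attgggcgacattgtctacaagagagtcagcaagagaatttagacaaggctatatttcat
Acnat2: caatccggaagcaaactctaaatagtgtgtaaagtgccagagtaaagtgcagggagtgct
Hao2: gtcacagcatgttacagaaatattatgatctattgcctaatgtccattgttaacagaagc
Acsm2: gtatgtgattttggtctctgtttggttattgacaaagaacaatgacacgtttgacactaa
Ehhadh: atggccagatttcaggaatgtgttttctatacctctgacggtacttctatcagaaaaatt
Acsl4, brighter probe: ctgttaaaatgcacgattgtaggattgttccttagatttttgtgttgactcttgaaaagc
Acsl4, dimmer probe: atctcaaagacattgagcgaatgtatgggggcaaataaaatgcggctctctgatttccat
Acot4, brighter probe: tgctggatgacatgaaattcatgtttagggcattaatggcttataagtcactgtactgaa
Acot4, dimmer probe: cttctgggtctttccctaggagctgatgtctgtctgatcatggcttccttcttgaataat

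The Fabp1 probe lies on the plus strand at chr6:71154906-71154965, the Acnat2 probe on the minus strand at chr4:49392947-49393006 and the Hao2 probe on the minus strand at chr3:98678664-98678723. The Acsm2 probe lies on the plus strand at chr7:126739633-126739692 and the Ehhadh probe on the minus strand at chr16:21761914-21761973. Both Acsl4 probes lie on the minus strand of the X chromosome, the brighter at chrX:138752602-138752661 and the dimmer at chrX:138755198-138755257. Both Acot4 probes lie on the plus strand of chromosome 12, the brighter at chr12:85384821-85384880 and the dimmer at chr12:85384162-85384221. The array files assign each of these probes to a transcript of the gene that names it. Several members have close relatives among the acyl-CoA synthetases, thioesterases and thiolases, so the probes were compared: 0 of the 60 shared a run of 20 bases with a probe of another gene.

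The question of the first comparison was how far these genes had moved after 1 day on the dish. The median log2 ratio of the 42 genes, day 1 over day 0, was -2.15, against -0.12 over all 19882 genes with a ratio. At least 4-fold lower signals were seen for 22 of 42, against 5.04% of all genes, and at least 2-fold lower signals for 39 of 42, against 15.5%. Acsl4 was the only one of the 42 whose signal was higher on day 1 than on day 0, against 8602 of all 19882 genes. The day 0 array is shared by this comparison and the next. After 3 days the median ratio against day 0 was -2.68, against -0.13 over all 19989 genes, with 26 of 42 at least 4-fold lower, against 8.17% of all genes, and 40 of 42 at least 2-fold lower, against 22.5%. The members just inside and just outside the 4-fold threshold on day 3 were Crot at 4.09-fold lower and Acadvl at 3.81-fold lower. Under at least 1 alternative the 4-fold call on day 3 against day 0 was lost for Crot, Decr2, Hadh, Pex11a and Acot4 and gained for Acadvl and Cpt2. Among all genes, 3.23% were at least 4-fold higher on day 1 and 5.11% on day 3, each against day 0, and 0 of the 42 were so on either day. The comparison was also read against the 7561 genes whose mean level over the 3 arrays exceeded the 75th percentile. Of these, 5.3% were 4-fold lower on day 1 and 7.16% on day 3, each against day 0. Because the mean covers all 3 days, this group can leave out genes that were bright on day 0 and fell. It is therefore not matched to the set for brightness on day 0.

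**Figure D1:**
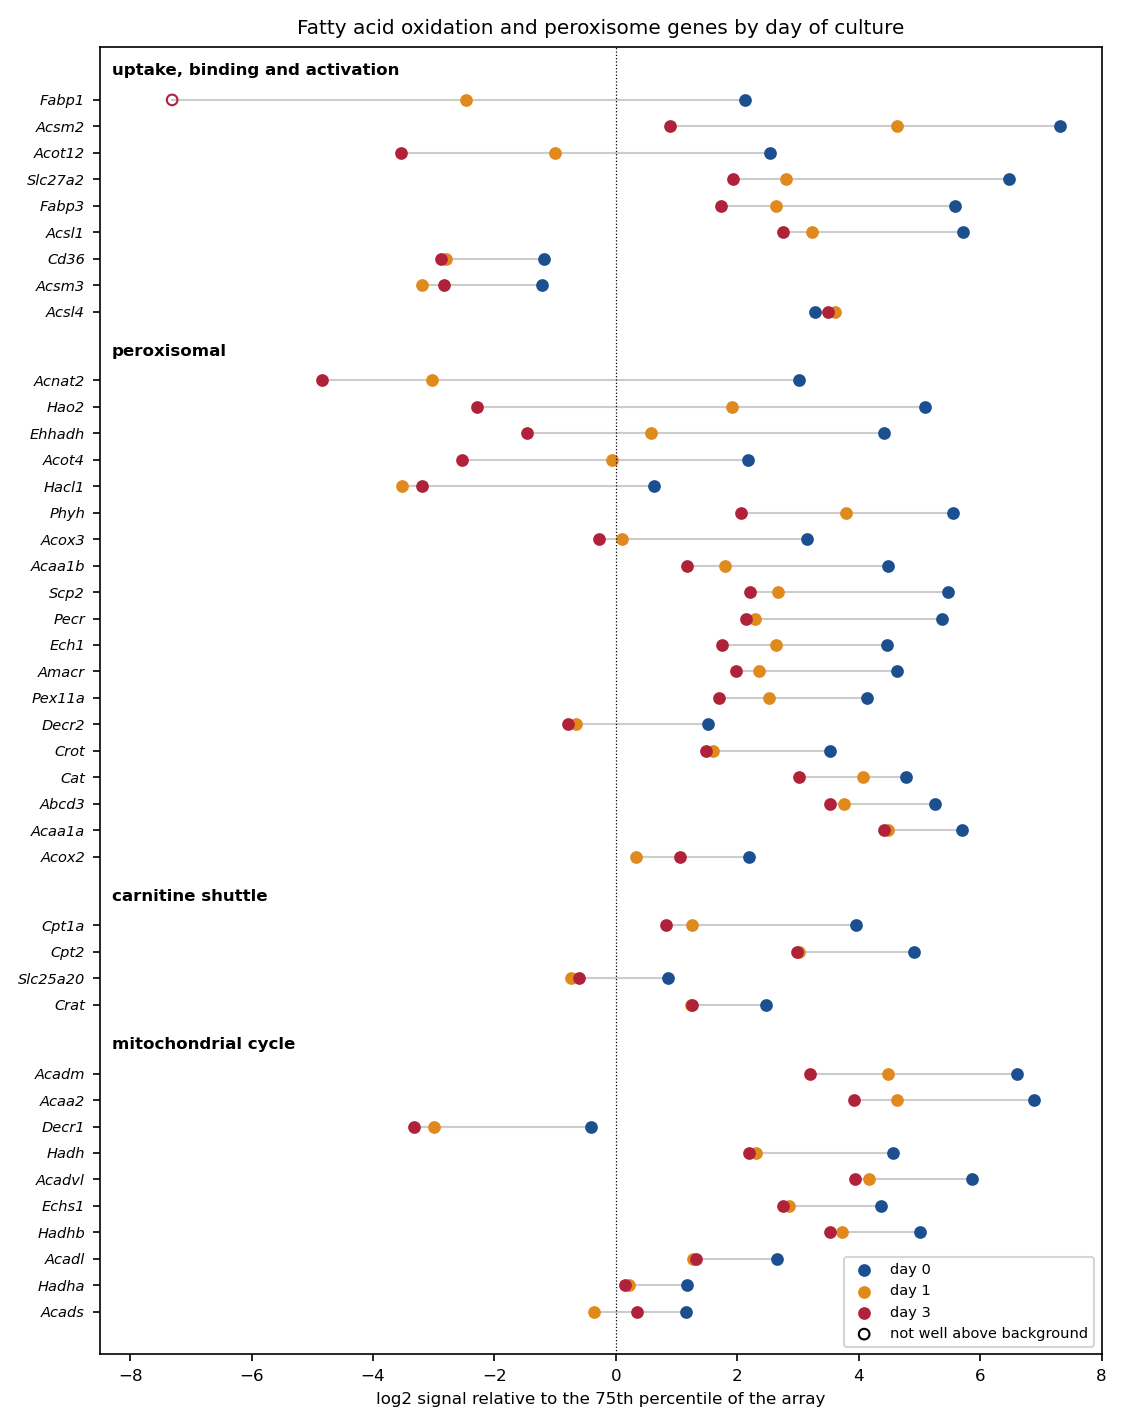
Signal of each of the 42 genes on days 0, 1 and 3 (1 array each), as the log2 of the signal over the array's 75th percentile (dotted line at 0), grouped by role; an open circle is a signal not well above background. Day 0 is the rightmost point for every gene but Acsl4. On days 0, 1 and 3, 39, 31 and 29 of the 42 genes lie above the 75th percentile, against 7658, 7547 and 7586 of all 21215 genes.

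Between day 1 and day 3 the set moved less. The median log2 ratio, day 3 over day 1, was -0.35, against -0.05 over all 19887 genes, and 6 of 42 were at least 4-fold lower, against 1.32% of all genes, while 10 of 42 were at least 2-fold lower, against 8.54%. The 6 at least 4-fold lower were Fabp1, Acsm2, Acot12, Hao2, Acot4 and Ehhadh, from the uptake and peroxisomal roles alone. Of these calls, that of Ehhadh (-2.04 on the log2 scale) was lost under 4 of the 10 alternatives, all of them other scalings, with values up to -1.72. The call of Acot4 was lost under 3 and that of Acot12 under 1, where it was -1.85. A further 29 genes were lower by less than that and 7 were higher, the highest being Acox2 at 1.67-fold. Over all 19887 genes, 10844 were lower and 9043 higher. At least 4-fold higher signals were seen for 0 of the 42, against 1.55% of all genes. These are small differences for most genes: 15 of the 42 changed sign for day 3 over day 1 under at least 1 alternative scaling or background treatment.

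**Figure D2:**
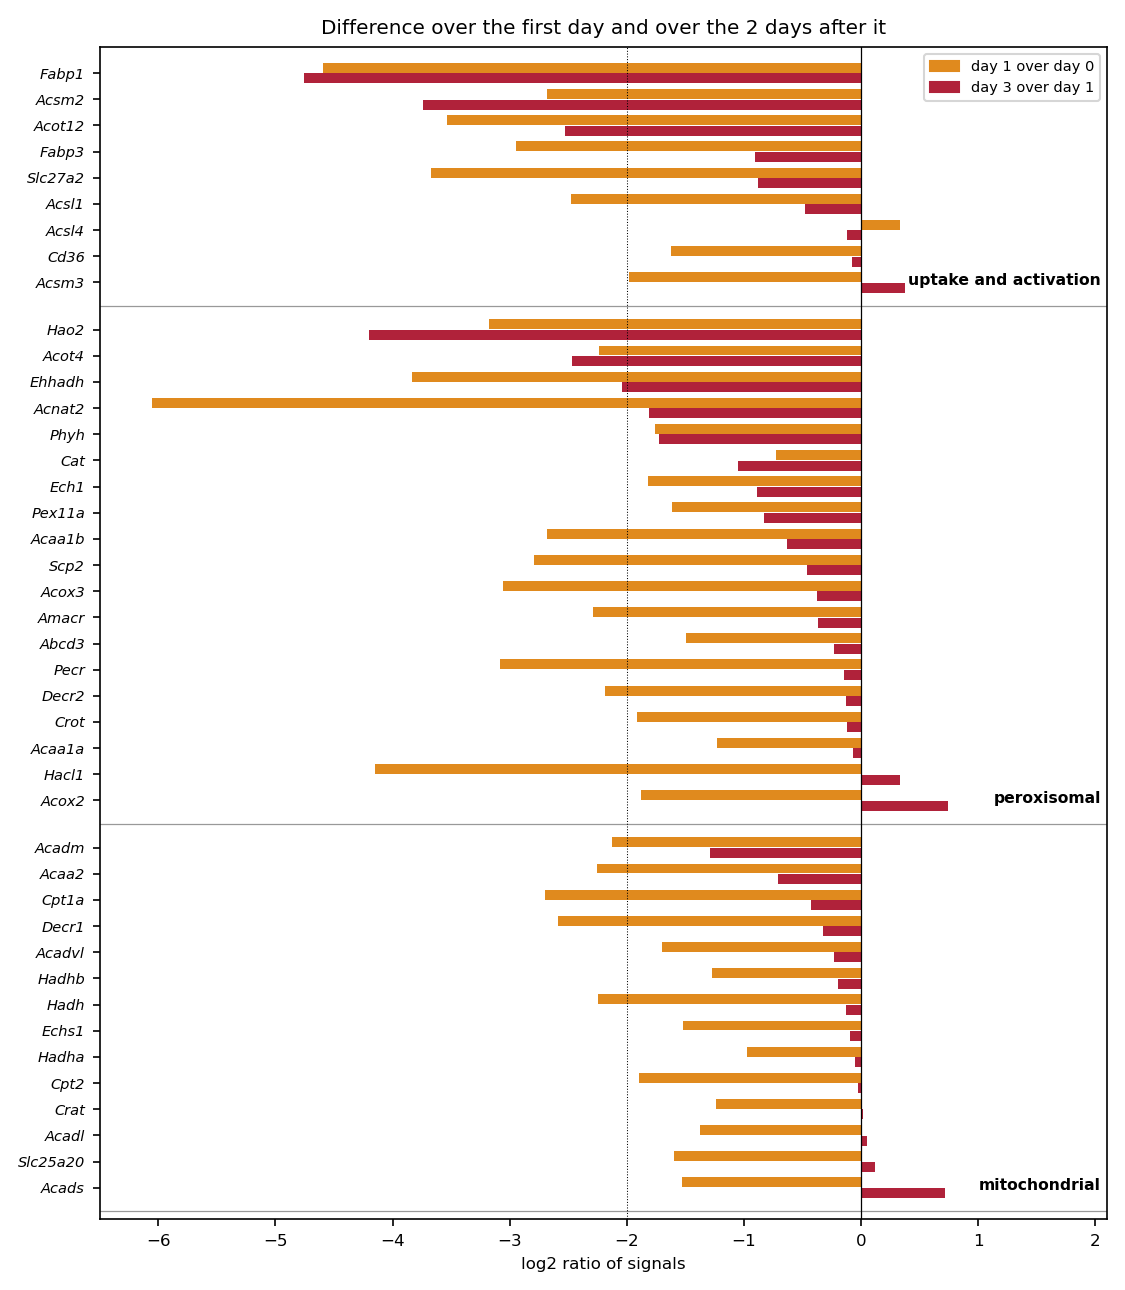
log2 ratio of signals over the first day (day 1 over day 0, orange) and over the next 2 days (day 3 over day 1, red) for each of the 42 genes by step; the dotted line marks 4-fold lower and the red bar of Fabp1 is a bound. Over the first day 22 bars reach the line, and over the next 2 days 6 do, none of them among the genes counted as mitochondrial.

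The genes chosen for each step of the pathway differed in how far they moved. On day 3 against day 0, the median log2 ratio was -3.85 for the 9 genes of uptake, binding and activation, -3.23 for the 19 peroxisomal genes and -1.77 for the 14 mitochondrial genes. The uptake genes thus stood -2.08 and the peroxisomal genes -1.46 from the mitochondrial ones on the log2 scale. The 9 include Acot12, at -6.07, which splits acetyl-CoA and does not activate fatty acids, so their median depends on how genes were assigned. Genes of activation were placed by role and not by organelle, Acsm2 at -6.42 among them. At least 4-fold lower signals on day 3 were seen for 6 of 9 uptake genes, 15 of 19 peroxisomal genes and 5 of 14 mitochondrial genes. The share over all genes was 8.17%. On day 1 against day 0 the medians lay closer together, at -2.68, -2.24 and -1.65 in the same order, so that the differences from the mitochondrial genes were -1.03 for uptake and -0.59 for peroxisomal genes. For day 3 over day 1 the median was -0.88 for uptake genes, -0.46 for peroxisomal genes and -0.11 for mitochondrial genes. The ranges of the steps overlapped in every comparison, and with 1 array a day the differences between steps were not tested. The order of the steps holds for the chosen genes only. In the lists of other genes described below, the medians for day 3 over day 0 ran the opposite way. They were -1.15 for uptake, binding and activation, -1.51 for peroxisomal enzymes and transporters and -1.75 for mitochondrial oxidation. The genes and the lists were chosen with earlier results of these data known.

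**Figure D3:**
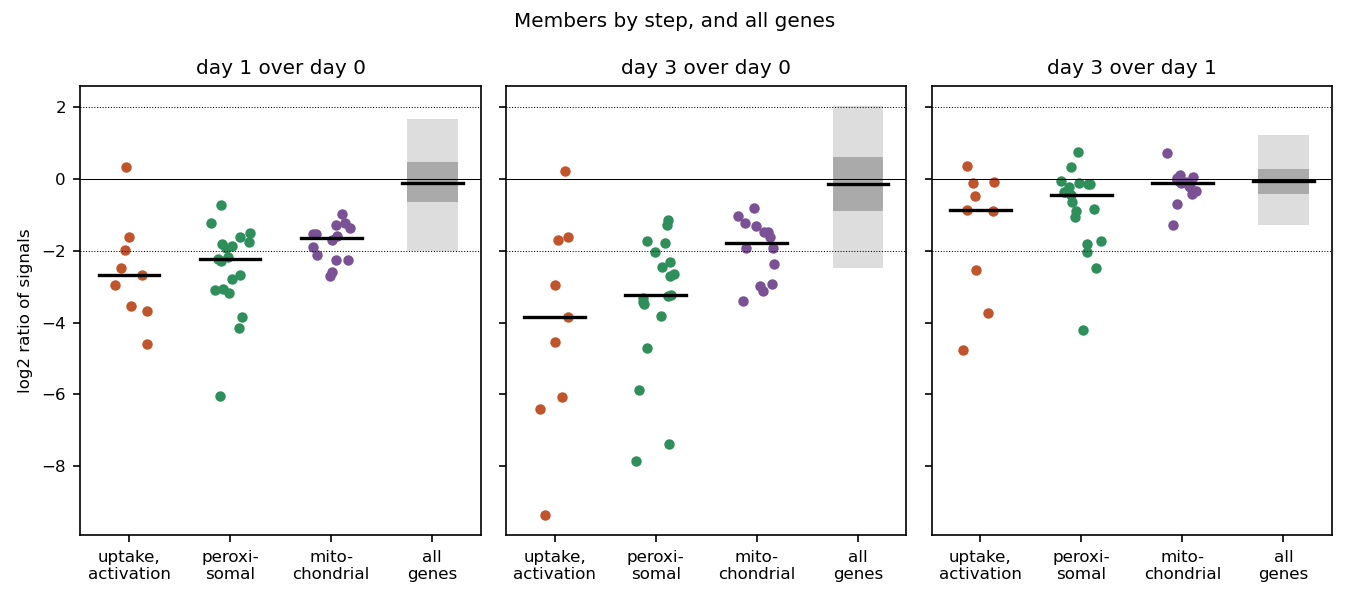
log2 ratios of the 42 genes by step (points) with the median of each step (black line), beside all genes (dark band, middle 50%; light band, 5% to 95% quantiles; black line, median), for day 1 over day 0, day 3 over day 0 and day 3 over day 1; dotted lines mark 4-fold. On day 3 over day 0 the step medians are -3.85, -3.23 and -1.77, against -0.13 for all genes.

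Among the lowest ratios of the set was that of a binding protein. Fabp1, the liver-type fatty acid binding protein, had signals of 4.36 on day 0 and 0.181 on day 1 and was not well above background on day 3. It was 24.1-fold lower on day 1 and at least 651-fold lower on day 3, each against day 0, and at least 27.0-fold lower on day 3 than on day 1. Its probe was the only one to lose its flag of detection among those that stood for the 42 genes. With a model-based background correction in place of the scanner's, the ratio of day 3 over day 0 was -6.13 on the log2 scale, against -9.35. That of day 3 over day 1 was -2.01, against -4.76. Both bounds therefore hold only with the scanner's own background correction. Fabp3, the heart-type binding protein, had signals of 47.8, 6.21 and 3.32 on days 0, 1 and 3 and was 14.4-fold lower on day 3 than on day 0. Cd36, a membrane receptor that helps fatty acids into the cell, lay below the 75th percentile throughout, with signals of 0.443, 0.144 and 0.136, and was 3.25-fold lower on day 3 than on day 0.

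Because so many of the genes were lower together, their promoters were searched for direct repeats of the half-site AGGTCA with 1 base between them, a motif that nuclear receptors such as Ppara and Hnf4a are known to bind. Promoters of 300 bases, from 250 before to 50 after the start site, were taken from RefSeq (GRCm38), where 38 of the 42 genes had at least 1, making 43 promoters. The exact repeat, searched on both strands, was in 0 of the 43 and in 13 of all 32851 promoters, or 0.0396%. With the 4th base of each half-site left free it was in 1 of the 43, that of Fabp1, and in 0.381% of all. The Fabp1 promoter (plus strand, chr6:71199629-71199928 of GRCm38) is printed with that match in capitals, on the minus strand and beginning at position -67 from the start site.
Fabp1 promoter: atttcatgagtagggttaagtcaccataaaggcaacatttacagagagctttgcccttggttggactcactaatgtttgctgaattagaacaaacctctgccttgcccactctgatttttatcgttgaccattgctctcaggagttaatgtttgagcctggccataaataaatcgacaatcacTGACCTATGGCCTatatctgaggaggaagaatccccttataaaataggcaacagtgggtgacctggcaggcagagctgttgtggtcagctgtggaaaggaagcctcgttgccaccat
The sequence CAAAGTCCA, a form of the Hnf4a site, was in the promoter of Abcd3 and no other of the 43, against 0.475% of all promoters, and TCAAGGTCA, a form of the Esrra site, was in 0 of the 43, against 0.423%. These are matches of letters in a short window, not measurements of binding.

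Activation enzymes split by gene. Acsm2, a medium-chain acyl-CoA synthetase of the kidney and liver, had signals of 158, 24.7 and 1.85 on days 0, 1 and 3 and was 85.5-fold lower on day 3 than on day 0. Of its 3 probes, 2 were well above background on every day, with log2 ratios of -6.42 and -6.49 for day 3 over day 0. The third was not so on day 3, and its ratio of -7.27 or lower is a bound. Its relative Acsm3 was dim and was 3.04-fold lower, at signals of 0.429, 0.109 and 0.141. Slc27a2, a very-long-chain acyl-CoA synthetase that also aids uptake, had signals of 89.1, 6.99 and 3.80 and was 23.5-fold lower on day 3 than on day 0. Another of its probes gave a log2 ratio of -4.33, and the third, which lies on the minus strand and is assigned to a separate cDNA, gave -1.001 with signals no higher than 0.0455. Acsl1, the long-chain synthetase of oxidative tissues, had signals of 52.4, 9.41 and 6.77 and was 7.73-fold lower on day 3 than on day 0. Acot12 was counted with these genes, though it is a cytosolic enzyme that splits acetyl-CoA and does not activate fatty acids. It had signals of 5.79, 0.498 and 0.0863 and was 67.1-fold lower on day 3 than on day 0. Its log2 ratio of -6.07 became -5.23 with the alternative background correction.

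Acsl4, a long-chain synthetase with a preference for arachidonic acid, did not share this direction. Its brighter probe, printed first of the pair above, had signals of 9.76, 12.3 and 11.3 on days 0, 1 and 3, with log2 ratios of 0.33 for day 1 and 0.21 for day 3, each over day 0. Scaling by reference genes turned the day 1 ratio to -0.02. The dimmer probe had signals of 1.27, 6.73 and 6.37, with log2 ratios of 2.41 and 2.33. The probes of Acsl4 therefore disagree on the size of the difference, by more than the median spread of 0.47 between probes of 1 gene. In neither was the signal lower on day 3 than on day 0. By the dimmer probe Acsl4 was past 4-fold higher on both days, so the count of 0 genes 4-fold higher holds for the brightest probes.

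**Figure D4:**
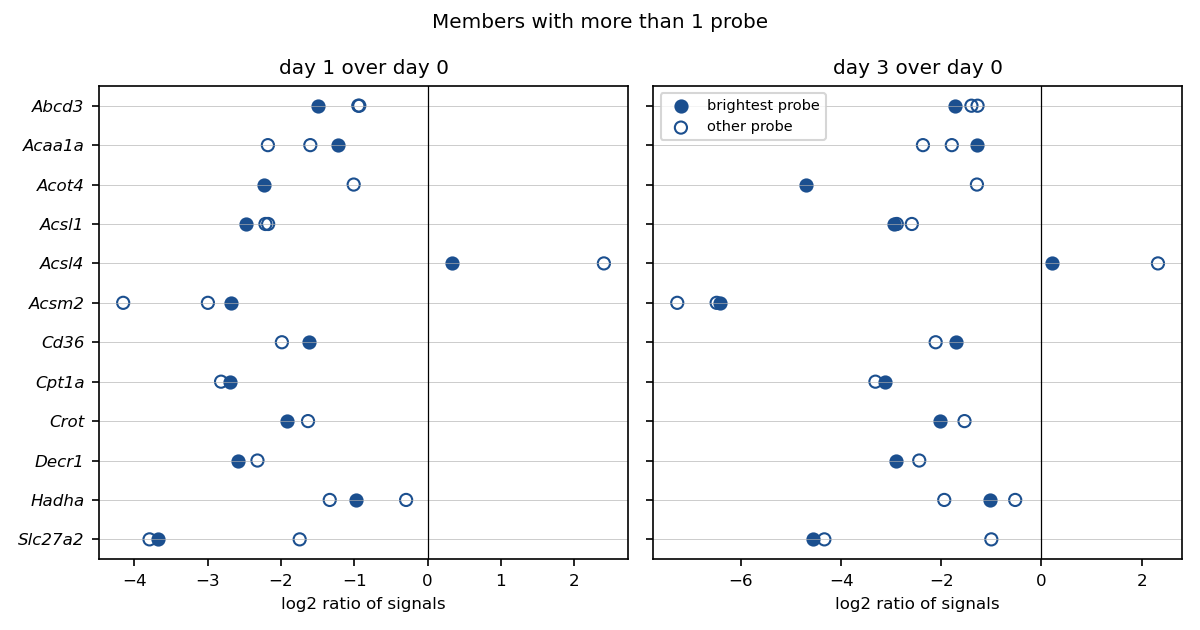
log2 ratio of every probe of the 12 genes with more than 1 probe, day 1 over day 0 (left) and day 3 over day 0 (right); the filled circle is the brightest probe, which stands for the gene in the text. The lowest Acsm2 point on the right is a bound. All probes of 11 genes lie below 0 in both comparisons and both Acsl4 probes lie above it; the Acot4 probes lie at -4.71 and -1.29 for day 3 over day 0.

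Among peroxisomal genes the 2 lowest ratios for day 3 over day 0 belonged to enzymes outside the core oxidation cycle. Acnat2, which joins acyl groups to amino acids, had signals of 8.10, 0.122 and 0.0348 on days 0, 1 and 3 and was 233-fold lower on day 3 than on day 0. On the log2 scale most of that was present by day 1, when it was already 66.3-fold lower. Hao2, an oxidase of long-chain 2-hydroxy acids, followed another course, with signals of 33.9, 3.76 and 0.205. It was 9.03-fold lower on day 1 against day 0 and a further 18.3-fold lower on day 3 against day 1, so that day 3 stood 166-fold below day 0. The alternative background correction gave -6.67 for Acnat2, against -7.86, on the log2 scale for day 3 over day 0.

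Acot4, a thioesterase that splits dicarboxylic acyl-CoAs such as succinyl-CoA, depended on the probe. Its brighter probe had signals of 4.53, 0.960 and 0.173 on days 0, 1 and 3 and was 26.1-fold lower on day 3 than on day 0, a log2 ratio of -4.71. The dimmer probe had signals of 1.21, 0.599 and 0.493 and a log2 ratio of -1.29. Under 2 alternative background treatments the second probe became the brighter one, and the ratio was then between -1.44 and -1.36, no longer 4-fold lower.

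The core enzymes of the peroxisomal cycle were lower to unequal degrees. Ehhadh, the bifunctional enzyme that hydrates and then dehydrogenates the chain, had signals of 21.2, 1.49 and 0.361 on days 0, 1 and 3 and was 58.9-fold lower on day 3 than on day 0. Acox3 and Acox2, the oxidases of branched chains and bile acid precursors, had signals of 8.89, 1.07 and 0.825 for Acox3 and 4.60, 1.25 and 2.09 for Acox2. Acox3 was 10.8-fold and Acox2 2.20-fold lower on day 3 than on day 0, and Acox2 was 1.67-fold higher on day 3 than on day 1. The thiolases Acaa1b and Acaa1a, near copies of each other, differed on the array in the ratio of their brightest probes. Acaa1b had signals of 22.4, 3.49 and 2.26 and was 9.93-fold lower on day 3 than on day 0, whereas Acaa1a had 52.2, 22.3 and 21.3 and was 2.45-fold lower. The 3 probes of Acaa1a ranged from -2.37 to -1.29 on the log2 scale for day 3 over day 0, above the -3.31 of Acaa1b. The Acaa1b probe, and the 3 of Acaa1a, shared no run of 20 bases, though cross-hybridisation between such close genes was not measured here.

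Unsaturated chains need auxiliary enzymes before they can enter the cycle. Ech1, an isomerase of dienoyl-CoA, had signals of 22.0, 6.24 and 3.37 and was 6.51-fold lower on day 3 than on day 0. Decr2, the peroxisomal dienoyl-CoA reductase, was 4.97-fold lower at 2.87, 0.632 and 0.578. Apart from these, Pecr, an enoyl-CoA reductase, was 9.38-fold lower on day 3 than on day 0, at 41.4, 4.90 and 4.42. In Decr2 and Pecr nearly all of the difference was present on day 1. Crot, which makes carnitine esters of medium-chain products for export, was 4.09-fold lower on day 3 than on day 0, at 11.5, 3.05 and 2.81.

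Of the genes of branched-chain and sterol handling, the 4 below were at least 4-fold lower on day 3 than on day 0, against 8.17% of all genes. Among the oxidases and the transporter of branched chains, named in other paragraphs, Acox3 was 10.8-fold, Abcd3 3.31-fold and Acox2 2.20-fold lower. Phyh, which starts the alpha-oxidation of phytanic acid, had signals of 46.9, 13.8 and 4.19 and was 11.2-fold lower, with a further 3.30-fold between day 1 and day 3. Hacl1, the lyase of the same route, had 1.55, 0.0872 and 0.110 and was 14.1-fold lower on day 3 than on day 0, a level it had reached on day 1. Its log2 ratio of -3.82 became -3.02 with the alternative background correction. The 2 enzymes of alpha-oxidation thus differed in timing on these arrays. Each was read from 1 probe, and that of Hacl1 was dim on days 1 and 3, so a fall after day 1 would be harder to read in it. Scp2, a thiolase and sterol carrier, was 9.53-fold lower at 44.2, 6.38 and 4.64, and Amacr, the racemase of branched acyl-CoAs, was 6.29-fold lower at 24.9, 5.10 and 3.96.

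The remaining 3 peroxisomal genes serve the organelle as a whole or its transport. Cat, catalase, had signals of 27.6, 16.7 and 8.07 and was 1.65-fold lower on day 1 and 3.42-fold lower on day 3, each against day 0, the smallest day 1 difference among the 19 peroxisomal genes. Abcd3, the half-transporter that imports branched acyl-CoAs, was 3.31-fold lower on day 3 than on day 0, at 38.3, 13.6 and 11.6. Pex11a, a membrane protein that promotes peroxisome division, was 5.44-fold lower at 17.6, 5.75 and 3.24. The other peroxins, which build the organelle and import its proteins, were read from a separate list of 14 on the array. On day 3 against day 0, 0 were 4-fold lower, against 8.17% of all genes, and 3 were at least 2-fold lower, against 22.5%. For so few genes these counts lie near the shares over all genes. The median log2 ratio was -0.63, against -0.13 over all genes.

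The carnitine shuttle had 1 of its 4 genes past 4-fold lower on day 3, where 8.17% of all genes were. Cpt1a, the outer-membrane transferase that controls entry into mitochondria, had signals of 15.5, 2.38 and 1.77 on days 0, 1 and 3 and was 8.76-fold lower on day 3 than on day 0. Its second probe gave a ratio of the same direction. Cpt2, its inner-membrane partner, was 3.79-fold lower at 29.96, 8.05 and 7.91, and the carrier Slc25a20 was 2.78-fold lower at 1.82, 0.601 and 0.653. Crat, carnitine acetyltransferase, was 2.33-fold lower at 5.55, 2.35 and 2.38. From day 1 to day 3 the median log2 ratio of the 4 was -0.0042, so the differences in this step were present after 1 day.

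In the mitochondrial cycle 4 of 10 genes were at least 4-fold lower on day 3 than on day 0, against 8.17% of all genes. Acadm, the medium-chain acyl-CoA dehydrogenase, had signals of 97.4, 22.4 and 9.18 on days 0, 1 and 3 and was 10.6-fold lower on day 3 than on day 0. Acaa2, the thiolase that ends the cycle, was 7.83-fold lower at 118, 24.7 and 15.1. Hadh, the medium- and short-chain hydroxyacyl-CoA dehydrogenase, was 5.19-fold lower at 23.6, 4.97 and 4.55, and Decr1, the mitochondrial dienoyl-CoA reductase, was 7.53-fold lower at 0.751, 0.125 and 0.0997. Acadm was also the 1 gene of the 14 counted as mitochondrial that was at least 2-fold lower on day 3 than on day 1, at 2.44-fold.

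The dehydrogenases of other chain lengths moved less. Acadvl, for very long chains, was 3.81-fold lower on day 3 than on day 0, at 58.3, 17.9 and 15.3, and Acadl, for long chains, was 2.50-fold lower at 6.28, 2.43 and 2.51. Acads, for short chains, had signals of 2.24, 0.777 and 1.27, so it was 2.88-fold lower on day 1 and 1.76-fold lower on day 3, each against day 0. Acads was the only mitochondrial gene within 2-fold of day 0 on day 3. Hadha and Hadhb, the subunits of the trifunctional protein, were 2.03-fold and 2.78-fold lower on day 3 than on day 0, at 2.27, 1.16 and 1.11 for Hadha and 32.0, 13.3 and 11.5 for Hadhb. The 3 Hadha probes ranged from -1.94 to -0.52 on the log2 scale for day 3 over day 0. Echs1, the short-chain hydratase, was 3.08-fold lower at 20.7, 7.18 and 6.71.

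Other genes of the same pathways were read from lists chosen with these data already known. For comparison, 8.17% of all genes were at least 4-fold lower and 5.11% at least 4-fold higher on day 3 than on day 0. Of 16 other mitochondrial oxidation genes 6 were at least 4-fold lower on day 3 than on day 0 (median log2 ratio -1.75), among them Acad11, 9.29-fold lower, and Cpt1b, the muscle-type transferase, 6.66-fold lower. Acot9, a mitochondrial thioesterase, went the other way with a log2 ratio of 1.83. The list of other peroxisomal enzymes and transporters held 34 genes with a median of -1.51, of which 14 were 4-fold lower or more on day 3 and 1 was 4-fold higher or more, the urate oxidase Uox, which was 4.06-fold higher at signals of 0.0899, 0.156 and 0.365. The peroxisomal amino acid oxidases Pipox and Dao were 58.4-fold and 27.7-fold lower on day 3 than on day 0. Acnat1, a paralog of Acnat2, was 54.5-fold lower. Of 27 further uptake, binding and activation genes with a ratio 9 were at least 4-fold lower (median -1.15), led by Acsm1 at 93.5-fold and Acsm5 at 51.1-fold, and Acot7, a cytosolic thioesterase, was 5.90-fold higher on day 3 than on day 0.

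**Figure D5:**
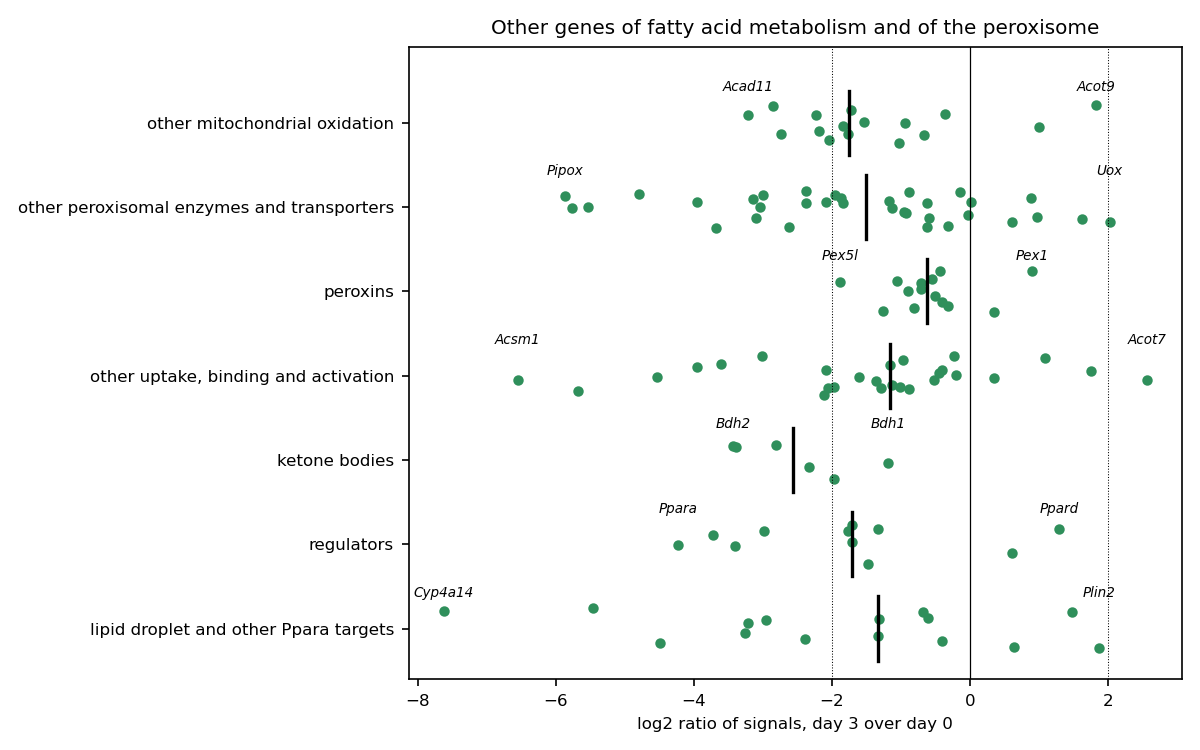
log2 ratio of day 3 over day 0 for genes outside the set, by list (points), with the median of each list (black line); the lowest and the highest gene of each list are named and dotted lines mark 4-fold. List medians lie between -2.57 for ketone bodies and -0.63 for peroxins, and Acot7 and Uox are the genes past 4-fold higher.

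Of 11 regulators of these genes 9 had lower signals on day 3 than on day 0, as had 11059 of all 19989 genes. Ppara, the receptor that fatty acids activate, had signals of 5.99, 0.622 and 0.319 on days 0, 1 and 3 and was 18.8-fold lower on day 3 than on day 0. Ppargc1a, a coactivator of mitochondrial genes, was 13.2-fold lower at 16.5, 2.14 and 1.25, and Hnf4a, a nuclear receptor of liver and proximal tubule, was 10.6-fold lower at 12.3, 1.39 and 1.17. For these 3 most of the log2 difference was present on day 1. Esrrg, an oestrogen-related receptor, was 7.93-fold lower, while Esrra and Rxra were 3.42-fold and 3.27-fold lower. Ppard and Pparg, the other members of the Ppar family, were 2.44-fold and 1.53-fold higher on day 3 than on day 0, at dim signals of 0.0608, 0.0734 and 0.148 for Ppard and of 0.573, 0.943 and 0.874 for Pparg. In all, 4 of the regulators were at least 4-fold lower on day 3 than on day 0, against 8.17% of all genes. Their median log2 ratio was -1.71.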

How the data were processed

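Per the file headers, the deposited array files came from Feature Extraction 10.5.1.1, while the submitters' processing notes name 9.1. The processed signal of a spot is an intensity, which the authors had background-subtracted and, on the arrays of day 0 and day 1 but not day 3, corrected for a multiplicative trend. The other deposited columns used are the mean signal, local background and background-subtracted signal (intensity) and flags set to 0 or 1. The deposited value table is a ratio of the processed signal to the array's 75th percentile, and all 43379 values of each array were within 0.001 of it.

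Outlier flags removed 94, 102 and 85 spots on days 0, 1 and 3, and with them 17 of 41174 probes. Saturation was flagged on no array. The log2 signal minus the 75th percentile was averaged over the spots of a probe, and a gene was represented by its brightest probe by the mean of all arrays. Genes were named by the files' gene name column. All 42 genes could be named, and others where they were at least 4-fold different on day 3 against day 0 or were regulators. Acot9, Oxct1, Plin2 and the ends of each list in the plot lay outside this rule and were chosen after their values were seen. The genes and all lists were chosen with earlier results of these data known. There was 1 sample a day, so the 4-fold count and the median were given beside the same over all genes and no test was run. Alternatives were 4 other scalings, 2 other background treatments, the mean of all probes, no bounds, RefSeq names and the value table. Protein ends were not computed here. Scripts ran in Python 3.11.15 with pandas 2.3.3, NumPy 2.4.6 and matplotlib 3.10.9, and in R 4.3.3 with limma 3.58.1, and were tested on simulated data.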

Additional observations from a re-analysis of the deposited data

How the results depend on the processing

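Each result was recomputed under 10 alternatives, 1 of which, the background-subtracted signal without trend correction, was chosen after seeing the data. The count of the 42 genes at least 4-fold lower ranged from 20 to 29 for day 1 over day 0, from 22 to 28 for day 3 over day 0 and from 4 to 6 for day 3 over day 1, and was 0 for 4-fold higher throughout. The median of the 42 on the log2 scale was -2.51 for day 1 over day 0 with scaling by 14 reference genes, and -2.20 for day 3 over day 0 and -0.023 for day 3 over day 1 with scaling by 10 spike-ins. These scalings moved all genes: against the 75th percentile, the shift on days 1 and 3 was -0.21 and -0.31 for the array median, 0.35 and 0.17 for reference genes and -0.16 and -0.48 for spike-ins. With the mean of all probes the uptake minus mitochondrial difference was -1.52 for day 3 over day 0 and -0.36 for day 3 over day 1. No median of the 42 and no difference between their steps changed direction under these alternatives. The sign of a single gene changed under at least 1 alternative for 1 of 42 (Acsl4) for day 1 over day 0, 0 for day 3 over day 0 and 15 for day 3 over day 1, and the 4-fold call changed for 10, 7 and 3. Over all genes, at least 4-fold lower counts were 1633 for day 3 over day 0, against 1074 with model-based background correction and 1001 with spike-ins, and 263 for day 3 over day 1, against 133 and 164. At least 4-fold higher counts were 1021 for day 3 over day 0, against 1742 with spike-ins and 308 for day 3 over day 1, against 471 with spike-ins. The array median gave 1425 higher and 1187 lower for day 3 over day 0, and 851 and 813 for day 1 over day 0. Reference genes gave 433 higher and 1440 lower for day 1 over day 0, where the 75th percentile gave 643 and 1003, and 387 higher and 187 lower for day 3 over day 1, where it gave 308 and 263. The cause of these differences was not tested.

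No paired analysis was possible because each day had 1 array. With 1 array a day the spread between cultures is unknown, so no difference above has an error that covers it. Signals near the lowest detected level, such as Fabp1 and Acnat2 on day 3, set how large a ratio can be read.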

Other observations

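Ketone body genes, which use the same acetyl-CoA, were lower as well. Of 6 genes, 4 were at least 4-fold lower on day 3 than on day 0, against 8.17% of all genes, and all 6 at least 2-fold lower, against 22.5%. Their median log2 ratio was -2.57. Bdh2 had signals of 82.5, 18.9 and 7.66 on days 0, 1 and 3 and was 10.8-fold lower on day 3 than on day 0. Oxct1, which uses ketone bodies, was 3.93-fold lower at 216, 66.7 and 54.9.

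Among 15 lipid droplet genes and other Ppara targets with a ratio, 7 were at least 4-fold lower on day 3 than on day 0, against 8.17% of all genes. Cyp4a14, an omega-hydroxylase of fatty acids, had signals of 95.8, 9.71 and 0.486 and was 197-fold lower, and Cyp4a10 was 44.3-fold lower at 48.7, 4.38 and 1.10. Pdk4, a kinase that holds back glucose oxidation, was 22.6-fold lower at 11.5, 0.594 and 0.510, nearly all of it by day 1. Plin2, which coats lipid droplets, was 3.66-fold higher on day 3 than on day 0, at 17.3, 65.4 and 63.5.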
